A study of Homo sapiens with 8 samples.

Results

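TFPI, the gene of tissue factor pathway inhibitor, is 1 of the 1221 genes that the authors' deposited tables list for any of 3 comparisons in K-562 cells. It was chosen by its symbol, and it had been picked out because its values stood out, so the values below describe it and test nothing new. Per the authors' deposited tables TFPI rose 28.97-fold in TASOR knockout cells and 20.6-fold in wild-type cells with FLAG-TASOR2, and it was listed as 3.25-fold higher in knockout cells with FLAG-TASOR, each against the same wild-type controls. The protein blocks the start of blood clotting: it binds factor Xa and, together with it, the complex of tissue factor and factor VIIa, through Kunitz-type protease inhibitor domains. Protein S acts as its cofactor, and endothelial cells and megakaryocytes are known sources. TASOR belongs to HUSH, the human silencing hub, which directs histone H3 lysine 9 methylation to LINE-1 retrotransposons and to a set of genes. TASOR2 is a paralog of TASOR. HUSH has been described as acting on long, intronless, adenine-rich transcripts.

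Total RNA without ribosomal RNA was sequenced in K-562, an established human leukaemia line with erythroid and megakaryocytic features that the labels call a lymphoblast. There are 3 altered groups: cells labelled TASOR KO (knockout), knockout cells given a FLAG-TASOR transgene, and wild-type cells given FLAG-TASOR2. Each has 2 libraries and was compared with the same 2 libraries of wild-type controls, which carry a negative guide RNA. Knockout cells were made with CRISPR/Cas9 and grown from single sorted cells, and lentiviral transduction delivered either an empty puromycin vector or a FLAG-tagged transgene. The labels do not say if the 2 libraries of a group stem from different clones, so p-values may not cover the spread between clones. A clone's own level of TFPI cannot be told apart from the effect of the knockout. The labels name no guide RNA for the FLAG-TASOR2 cells, so guide and transgene cannot be told apart there. The files hold 1 row per gene and comparison and no value per library, so the depth and the spread between libraries are unknown. The tables hold genes with an unadjusted p below 0.05, a log2 fold change beyond 1 in either direction and a mean log2 CPM (counts scaled to library size, called the log2 mean expression) above 1, and a gene that is not listed has no value. Where a gene's adjusted p was not below 0.05 it is called listed as higher or lower, not risen or fallen.

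The altered genes themselves were seen in 2 of the 3 tables. TASOR was listed as lower in the knockout, with a log2 fold change of -1.08 (SE about 0.23, adjusted p 1.00) per the authors' deposited table. The SEs are approximate, derived from the log2 fold change and the F score of the deposited test. TASOR2 was listed as higher with FLAG-TASOR2, at 2.26 (SE about 0.27, adjusted p 0.125) per the authors' deposited table. Of the 9 genes in the list of HUSH and its partners, these were the 2 listed in any table. K-562 markers could be looked at only where they were listed: the embryonic globin gene HBE1 had a log2 mean expression of 10.83 per the authors' deposited table for FLAG-TASOR, and the alpha-globin gene HBA1 one of 10.15 in that for FLAG-TASOR2.

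TFPI (ENSG00000003436) lies on the minus strand of chromosome 2 at chr2:187464230-187565760 (GENCODE 29, GRCh38). The annotation gives it 12 transcripts, 10 coding and 2 with a retained intron, from 10 distinct start positions. Of the 12 transcripts, 6 start within the 300 bases that RefSeq's annotation places around its start site, 5 start further into the gene and 1 starts upstream. The longest coding transcript has 8 exons and 3885 bases, and the longest of these exons holds 2782 bases. The gene makes a long, soluble form and a shorter, membrane-anchored form with another 3' end, and the deposited value is 1 per gene, so it does not separate them.

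The bases around the start site are shown for TFPI, for NDN and TDRD5, the 2 genes nearest to TFPI in the size of their 3 log2 fold changes, and for THBS1, the other gene that rose with FLAG-TASOR2. Each run holds 250 bases before and 50 bases after the start, from RefSeq on GRCh38.p14, in the direction of transcription, with CG dinucleotides in capitals. The windows are chr2:187554386-187554685 (minus strand) for TFPI, chr15:23687256-23687555 (minus) for NDN, chr1:179591363-179591662 (plus, the first of 2 windows of the gene) for TDRD5 and chr15:39580829-39581128 (plus) for THBS1.
TFPI: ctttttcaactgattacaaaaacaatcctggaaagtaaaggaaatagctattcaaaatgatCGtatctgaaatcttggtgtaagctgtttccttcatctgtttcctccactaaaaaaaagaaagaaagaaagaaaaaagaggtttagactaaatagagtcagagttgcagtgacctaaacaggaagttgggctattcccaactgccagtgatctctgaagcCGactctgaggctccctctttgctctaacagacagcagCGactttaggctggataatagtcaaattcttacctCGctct
NDN: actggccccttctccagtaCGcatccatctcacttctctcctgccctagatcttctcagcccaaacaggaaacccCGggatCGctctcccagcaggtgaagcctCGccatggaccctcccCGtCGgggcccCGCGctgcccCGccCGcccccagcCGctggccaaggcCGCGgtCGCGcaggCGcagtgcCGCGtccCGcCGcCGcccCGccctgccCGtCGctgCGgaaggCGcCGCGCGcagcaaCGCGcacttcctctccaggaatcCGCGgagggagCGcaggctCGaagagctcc
TDRD5: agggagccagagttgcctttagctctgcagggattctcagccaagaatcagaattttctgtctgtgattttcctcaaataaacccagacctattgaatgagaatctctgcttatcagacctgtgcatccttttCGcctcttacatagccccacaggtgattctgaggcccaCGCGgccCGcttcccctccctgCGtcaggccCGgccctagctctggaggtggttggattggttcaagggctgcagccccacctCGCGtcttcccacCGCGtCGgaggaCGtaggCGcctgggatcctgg
THBS1: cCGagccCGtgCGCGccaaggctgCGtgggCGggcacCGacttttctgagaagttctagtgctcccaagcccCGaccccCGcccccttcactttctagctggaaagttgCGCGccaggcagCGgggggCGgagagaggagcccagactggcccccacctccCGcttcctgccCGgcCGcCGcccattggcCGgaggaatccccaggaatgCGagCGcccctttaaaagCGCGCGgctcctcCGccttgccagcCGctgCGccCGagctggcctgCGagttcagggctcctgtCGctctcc

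The TFPI window held fewer CG dinucleotides than most. It had 4 CG dinucleotides and 39.3% G and C, against medians of 14 and 58.7% over 35116 windows of the same length. Fewer CG dinucleotides were found in 24.5% of all windows, and a lower share of G and C in 10.2%. The NDN window held 35 CG dinucleotides, that of THBS1 held 29 and that of TDRD5 held 13. The windows thus spanned from below to above the median.

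A search for 7 short motifs on both strands found few in the TFPI window. GATAA, the core recognised by GATA factors, occurred at base 23 after the start, and 22.7% of all windows hold it. AGGAAG, a core of ETS factor sites, occurred at -70 (33.6% of all windows). CANNTG, the E-box, occurred 3 times, at -244, -156 and -52 (68.7% of all windows). None of these matches overlapped another. TATAAA, the TATA box (11.5% of all windows), GGGCGG, the GC box (44.95%), CCAAT (34.6%) and TGANTCA, the AP-1 site (7.71%), were not in this window. GGGCGG occurred 4 times each in the NDN and THBS1 windows, where the first 2 and the last 2 matches in NDN overlap.

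The transcript of TFPI was poor in G and C, and so rich in A and T together. Adenine made up 30.7% of the longest coding transcript, and 85.5% of 19659 protein-coding genes had a lower share in theirs. G and C together made up 35.1%, and 1.36% of these genes had less. The transcript's 3885 bases were more than those of 65.0% of genes. The gene was not intronless, and 49.8% of genes had fewer than its 8 exons. Its span of 101531 bases was longer than that of 82.3% of genes. Among the 6 genes nearest to TFPI by size, ACVR1C, a receptor of the TGF-beta family, had a similar share of A (30.9%), whereas NDN, an intronless gene with 1 exon, had 24.9%.

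TFPI rose in the TASOR knockout. Its log2 fold change was 4.86 per the authors' deposited table, or 28.97-fold (SE about 0.19, approximate 95% interval 4.38 to 5.33, F score 658, p 8.11e-07, adjusted p 0.0114). Of the 13992 genes tested, TFPI alone reached an adjusted p below 0.05 (0.00715%), and since TFPI was chosen for this value nothing is read from that share. The gene with the next highest F score, RNA5-8SN5, had one of 230 per the authors' deposited table. It was listed as lower, and no fold is given because a whole group appears to have no counts. This gene was named after its values were seen.

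In knockout cells expressing FLAG-TASOR, TFPI was listed as higher but did not pass the threshold. Its log2 fold change was 1.70 per the authors' deposited table, or 3.25-fold (SE about 0.32, approximate 95% interval 0.90 to 2.49, F score 29.1, p 0.00241, adjusted p 0.999). No gene of this table had an adjusted p below 0.05 (0 of at least 13957 tested, 0%, by the deposited F-test), although all 261 listed genes had an unadjusted p below 0.05. TFPI ranked 19 by p among the listed genes, which had also passed the limits on fold and expression. By chance, 33.7 of the tested genes are expected to have a p as low as that of TFPI. That number takes no account of those limits, so it cannot be compared with the rank.

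With FLAG-TASOR2 in wild-type cells, TFPI rose again. The log2 fold change was 4.36 per the authors' deposited table, or 20.6-fold (SE about 0.19, approximate 95% interval 3.89 to 4.84, F score 507, p 4.89e-07, adjusted p 0.00684). It had the lowest p of the table, in which 5 of 14001 genes had an adjusted p below 0.05 (0.0357%). Both rises were measured against the same 2 control libraries, so the second does not support the first independently.

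**Figure D1:**
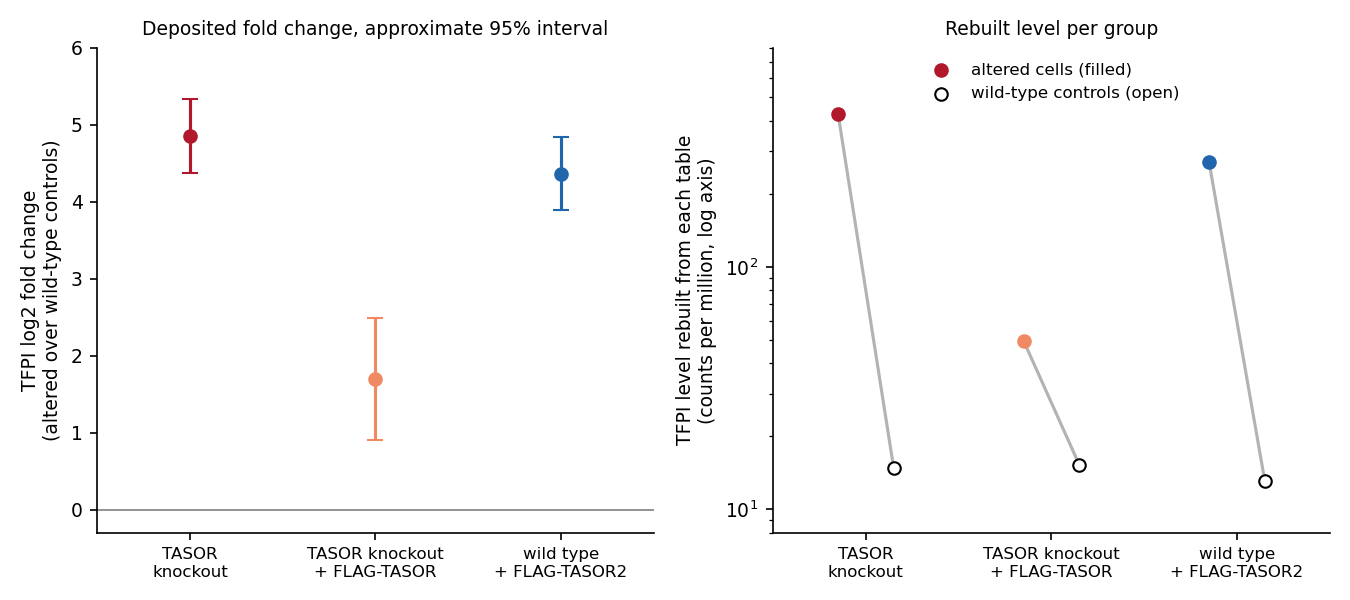
The left panel plots the authors' log2 fold change of TFPI over wild-type controls with an approximate 95% interval, and the right panel the TFPI level in CPM (log axis) rebuilt from each table for the altered cells (filled) and the controls (open). The knockout and FLAG-TASOR2 stand at 4.86 and 4.36, above the 1.70 of knockout cells with FLAG-TASOR, while the rebuilt control level stays between 13.1 and 15.3 CPM.

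The level of TFPI in each group was rebuilt from its log2 fold change and log2 mean expression, taking the mean expression as the log2 of the mean CPM of 2 groups of equal weight. TFPI came to 428 CPM in TASOR knockout cells, against 14.8 CPM in the controls of that table. It came to 49.5 CPM in knockout cells with FLAG-TASOR, against 15.3 CPM in controls. With FLAG-TASOR2 it came to 269 CPM, against 13.1 CPM in controls. The order was therefore knockout, FLAG-TASOR2, knockout with FLAG-TASOR and controls, each as a group value with no spread between libraries.

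The controls are the same 2 libraries in each table, so their 3 rebuilt values should be close if the assumption holds. They need not coincide, because it is not known if each comparison was normalised on its own. For TFPI the highest was 1.17 times the lowest. For other genes listed in 2 tables, the rebuilt control levels differed by a median absolute log2 of 0.08 between the FLAG-TASOR and knockout tables (57 genes), 0.13 between FLAG-TASOR2 and knockout (98 genes) and 0.13 between FLAG-TASOR2 and FLAG-TASOR (58 genes). For TFPI these differences were 0.05, 0.18 and 0.22.

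Between the altered groups, the log2 fold change was lower by 3.16 in knockout cells with FLAG-TASOR than in knockout cells (a difference of -3.16, from 1.70 and 4.86 per the authors' deposited tables). This is a fold over controls 0.112 times as large. The level above controls was 8.29% of that in the knockout (34.2 CPM, against 413 CPM). With the mean expression read as the mean of the log2 CPM instead, that share was 3.51% (40.4 CPM, against 1150 CPM). FLAG-TASOR2 cells differed from the knockout by -0.49 and from the knockout with FLAG-TASOR by 2.67 on the log2 scale. The approximate intervals of the knockout and of FLAG-TASOR2 overlap, and that of the knockout with FLAG-TASOR overlaps neither. These differences were not tested, because the 3 fits share controls and TFPI was chosen for this pattern.

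TFPI combined a large fold with a high log2 mean expression, an average over altered and control libraries that includes the rise itself. TFPI was rebuilt at 14.8 CPM in the controls and 428 CPM in the knockout. In the knockout it ranked 7 of 268 listed genes by log2 fold change and 1 by log2 mean expression, which was 7.79 per the authors' deposited table. That table holds 18 genes with a deposited log2 fold change above 4, 2 of them with a group that appears to have no counts. Both of these are counted above TFPI in its rank of 7. The 17 genes besides TFPI had a median log2 mean expression of 2.19. The highest of the 17 was TDRD6, a germline Tudor-domain gene named after its values were seen, at 4.40 per the authors' deposited table. Just above TFPI in log2 fold change stood TDRD5 at 4.87, PCDHGA4 at 4.91 and PLCB1, a phospholipase C, at 5.59 per the authors' deposited table. Just below stood PCDHGA5 at 4.77, PCDHGA7 at 4.48 and PCDHGB1 at 4.38 per the authors' deposited table. The 4 PCDHG genes are gamma protocadherins, cell adhesion proteins that share constant exons. These 6 genes had approximate SEs of 0.56 to 1.08, against 0.19 for TFPI, which was the smallest of the 259 listed genes for which a fold is given.

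With FLAG-TASOR in the knockout, TFPI ranked 45 of 261 by log2 fold change and 25 by log2 mean expression (5.02 per the authors' deposited table). Its neighbours here and with FLAG-TASOR2 were taken among genes with a deposited symbol. With FLAG-TASOR, those above TFPI in log2 fold change were PARD3 at 1.78, SYTL1 at 1.77 and ECM1 at 1.73 per the authors' deposited table. Below it were TSPOAP1-AS1 at 1.68, MPP7 at 1.66 and BCL9 at 1.64 per the authors' deposited table. The approximate SE of TFPI, 0.32, was the 21st smallest of 253. With FLAG-TASOR2, TFPI ranked 26 of 884 by log2 fold change and 40 by log2 mean expression (7.14 per the authors' deposited table). Its neighbours were GPR37 at 4.64, NPAP1 at 4.61 and SGCZ at 4.38 above it per the authors' deposited table, and LMO3 at 4.34, LINC01748 at 4.28 and KCNS3 at 4.25 below it. Of these, NPAP1, an imprinted gene, had a log2 mean expression of 5.41 per the authors' deposited table and the other 5 had values from 1.04 to 1.81. With FLAG-TASOR2, 36 listed genes had a log2 fold change above 4, and in 5 of these a group appears to have no counts. Besides TFPI, the 36 genes had a median log2 mean expression of 2.19. The highest was 12.55, for MT-RNR2, above the value of TFPI. MT-RNR2 was named after its values were seen.

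**Figure D2:**
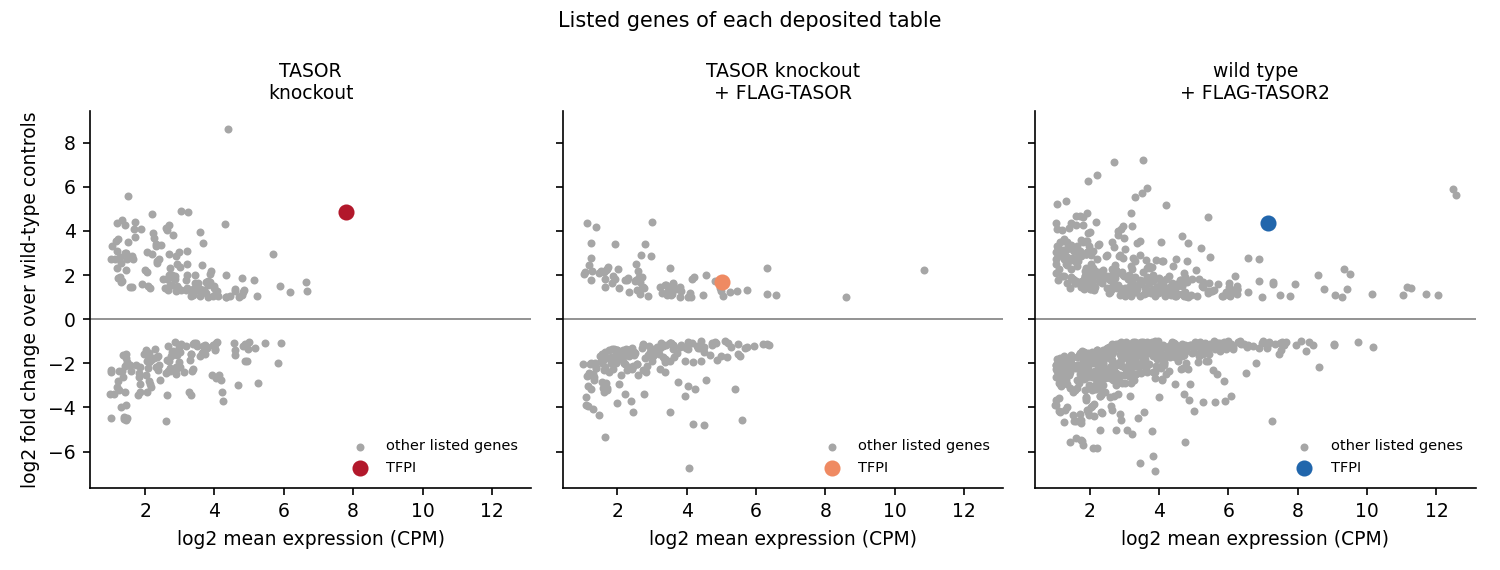
Each panel plots the log2 fold change over wild-type controls against the log2 mean expression for the listed genes of 1 deposited table, with TFPI as the large coloured point and the other listed genes in grey; genes for which no fold is given (9, 8 and 14) are left out. In the knockout TFPI lies furthest to the right, at 7.79, with a log2 fold change of 4.86, while with FLAG-TASOR it lies among other listed genes.

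Genes listed in all 3 tables were ranked by how near their values were to those of TFPI. In all, 28 genes were listed in the 3 tables, 14 higher in each, 12 lower in each and 2 mixed, and the comparisons share their controls. The measure of likeness was the Euclidean distance between the 3 log2 fold changes. The 6 nearest genes lay at distances of 2.28 to 3.27. The choice depends on the measure: with each gene's 3 values scaled to the same overall length, so that shape alone counts, 4 of the 6 stayed among the 6 nearest. By shape LINC02616 (distance 0.17), AC011447.7 (0.23) and ACVR1C (0.24) came first, against 0.31 for NDN, while TDRD5 (0.37) and ZNF418 (0.33) were no longer among the 6. NDN, an imprinted gene of the MAGE family, was nearest by size, with log2 fold changes of 3.08, 2.87 and 3.53 for the knockout, the knockout with FLAG-TASOR and FLAG-TASOR2 per the authors' deposited tables (approximate SEs 1.22, 1.12 and 0.98). TDRD5, which acts in germ cells, had 4.87, 3.41 and 2.64 per the authors' deposited tables (approximate SEs 0.70, 0.82 and 0.77). TDRD5 therefore matched TFPI in the knockout and stood above it with FLAG-TASOR and below it with FLAG-TASOR2.

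The other 4 nearest genes were AC011447.3, an antisense RNA gene, ACVR1C, and the zinc finger genes ZNF671 and ZNF418. Their log2 fold changes were 2.72 to 3.02 in the knockout, 1.83 to 2.26 with FLAG-TASOR and 1.67 to 3.26 with FLAG-TASOR2 per the authors' deposited tables. With FLAG-TASOR the log2 fold change of TFPI was 35.0% of that in the knockout. For the other 13 genes higher in all 3 tables this share was 57.5% to 164%, and for all 25 other genes with 1 direction the lowest was 44.8%, for SLC41A2. SLC41A2 was named after its values were seen. A gene enters this set only if it was still listed with FLAG-TASOR, so genes whose change was smaller there are missing. Of the 18 genes with a knockout log2 fold change above 4, 3 were listed with FLAG-TASOR and 12 with FLAG-TASOR2, counting TFPI. Of all genes tested, 1.87% and 6.31% were listed in these comparisons. Of the 3, AL359258.1 appears to have a group with no counts in both the knockout and the FLAG-TASOR comparison, so no fold is given. AL359258.1 was named after its values were seen. Most genes with such large knockout changes thus have no FLAG-TASOR value to set beside that of TFPI.

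**Figure D3:**
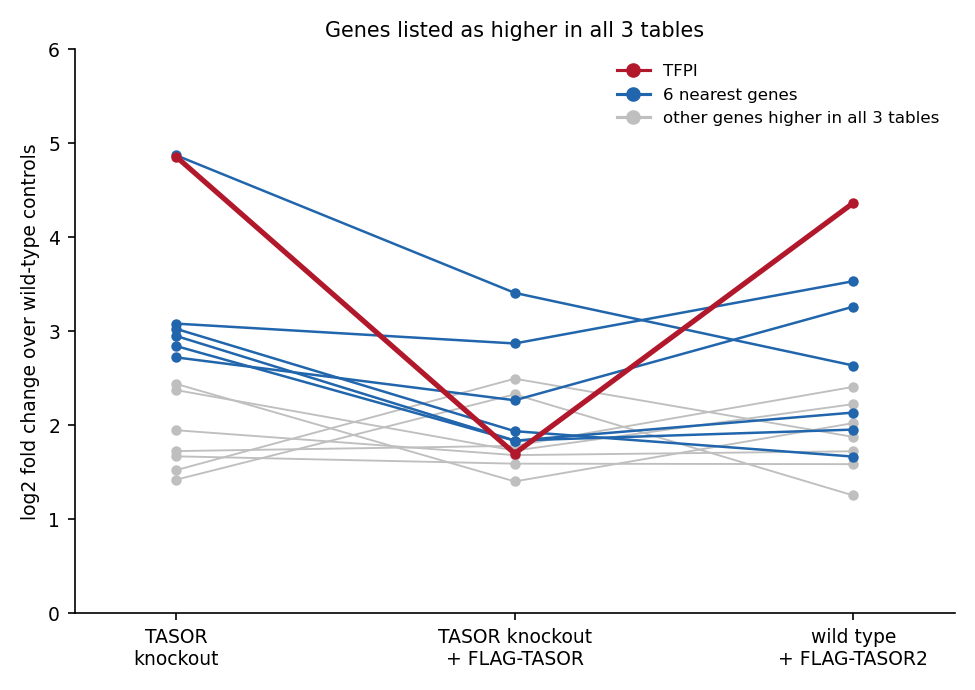
Lines join the log2 fold changes over wild-type controls of the 14 genes listed as higher in all 3 tables, with TFPI in red and the 6 genes nearest by size in blue. TFPI stands at 4.86, 1.70 and 4.36, while NDN stays between 2.87 and 3.53.

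Other genes of blood clotting were listed at shares near those of all genes. Over the 5 lists of clotting factors, natural anticoagulants, fibrinolysis, protease receptors and TFPI binding partners there were 55 genes besides TFPI. In the knockout 1 of the 55 was listed (1.82%), against 1.92% of all genes tested. With FLAG-TASOR 2 were listed (3.64%), against 1.87%, and with FLAG-TASOR2 3 were listed (5.45%), against 6.31%. How many of the 55 were tested is unknown.

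Among the 21 genes of the tissue factor pathway and coagulation factors, F12, the contact factor XII, was listed as lower in the knockout at -1.22 (SE about 0.44, adjusted p 1.00) per the authors' deposited table. F8, the cofactor factor VIII, was listed as lower with FLAG-TASOR2 at -2.93 (0.81, adjusted p 0.250) per the authors' deposited table. F3, which encodes tissue factor, and F7 and F10, which encode the proteases that TFPI inhibits, were listed in none of the 3 tables. None of the 10 other natural anticoagulants was listed, among them TFPI2, the paralog, and PROS1, which encodes protein S. None of the 4 thrombin and protease receptors was listed either.

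THBS1 was the clotting-related gene listed beside TFPI in 2 tables. It encodes thrombospondin-1, a platelet and matrix protein that binds TFPI, and it stands in the lists of fibrinolysis, of TFPI binding partners and of megakaryocyte markers. THBS1 rose with FLAG-TASOR2 by a log2 fold change of 3.21 (SE about 0.24, adjusted p 0.0353) per the authors' deposited table. With FLAG-TASOR it was listed as higher at 1.91 (0.69, adjusted p 0.999) per the authors' deposited table, and in the knockout it was not listed. Of the 12 fibrinolysis genes, PLAT, the tissue plasminogen activator, was also listed, as lower with FLAG-TASOR2 at -2.06 (0.71, adjusted p 0.332) per the authors' deposited table. Of the 11 binding partners, SDC1, a syndecan, was also listed, as higher with FLAG-TASOR at 1.54 (0.43, adjusted p 0.999) per the authors' deposited table.

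TFPI belongs to the genes with Kunitz domains, of which the list holds 17 others. In the knockout 1 of the 17 was listed (5.88%), against 1.92% of all genes tested. With FLAG-TASOR 1 was listed (5.88%), against 1.87%, and with FLAG-TASOR2 0, against 6.31%. A single gene sets each of these shares. COL7A1, the collagen of anchoring fibrils, was listed as higher in the knockout at 3.05 (SE about 0.72, adjusted p 1.00) per the authors' deposited table. PAPLN, papilin, was listed as lower with FLAG-TASOR at -1.70 (0.63, adjusted p 0.999) per the authors' deposited table. TFPI was the member listed in more than 1 table.

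Markers of endothelial cells and megakaryocytes, which make TFPI, and of erythroid and myeloid cells were listed in part. The shares below stand against 1.92%, 1.87% and 6.31% of all genes tested that were listed in the knockout, FLAG-TASOR and FLAG-TASOR2 tables, and how many markers were tested is unknown. Of 13 endothelial markers, 0 were listed in the knockout, 1 with FLAG-TASOR (7.69%) and 0 with FLAG-TASOR2. The 1 was TIE1, an endothelial receptor kinase, at 3.47 (SE about 0.80, adjusted p 0.999) with a log2 mean expression of 1.25 per the authors' deposited table. Of 12 megakaryocyte markers, 0 were listed in the knockout, 1 with FLAG-TASOR (8.33%) and 3 with FLAG-TASOR2 (25.0%), all as higher. With FLAG-TASOR2 these were THBS1, TUBB1 at 1.77 (0.25, adjusted p 0.125) and GP1BB at 1.59 (0.26, adjusted p 0.139) per the authors' deposited table. Of 16 erythroid markers, 1 was listed as lower in the knockout (6.25%), 1 higher and 1 lower with FLAG-TASOR (12.5%), and 5 higher with FLAG-TASOR2 (31.2%), among them SLC4A1 at 2.62 (0.31, adjusted p 0.117) per the authors' deposited table. Of 10 myeloid markers, ITGAM was listed in each table (10.0%), as lower at -2.44, -2.39 and -4.62 for the knockout, FLAG-TASOR and FLAG-TASOR2 per the authors' deposited tables. No summed level per group can be given, and the part of such markers in the TFPI values was not tested. In bulk RNA, more cells with TFPI and more TFPI RNA per cell cannot be told apart.

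Within 1 Mb of the ends of TFPI GENCODE 29 annotates 18 other genes, 6 of them protein-coding, and 0 were listed in any of the 3 tables. At the share of all tested genes that was listed (1.92%, 1.87% and 6.31%), 18 genes would hold 0.345, 0.337 and 1.14 listed ones, so the count of 0 is near the background, and how many of the 18 were tested is unknown. The nearest protein-coding gene, CALCRL, a receptor of the calcitonin family on the same strand, has its 5' end 15.8 kb beyond the 3' end of TFPI. ITGAV, which encodes the integrin alpha-V subunit, lies 783 kb away on the same side. AC007319.1, an antisense RNA gene on the plus strand (chr2:187003220-187554663), overlaps 90434 bases of TFPI. It was not listed, and no source used here says if reads were counted by strand, so reads of the 2 genes in that overlap may not have been told apart.

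Within 5 Mb, 106 other genes are annotated, and 1 was listed in the knockout (0.943%, against 1.92% of all genes tested), 1 with FLAG-TASOR (0.943%, against 1.87%) and 5 with FLAG-TASOR2 (4.72%, against 6.31%). How many of the 106 were tested is unknown too. FSIP2, a sperm tail gene 1631 kb away, was listed as higher in the knockout at 1.91 (SE about 0.71, adjusted p 1.00) per the authors' deposited table. With FLAG-TASOR2, 4 of the 5 were lower, between -1.43 for HIBCH and -2.37 for CAVIN2-AS1, and AC006460.1 was higher at 2.14, per the authors' deposited table. NEMP2 was lower in both the FLAG-TASOR and the FLAG-TASOR2 comparison, at -1.49 and -1.48 per the authors' deposited tables.

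**Figure D4:**
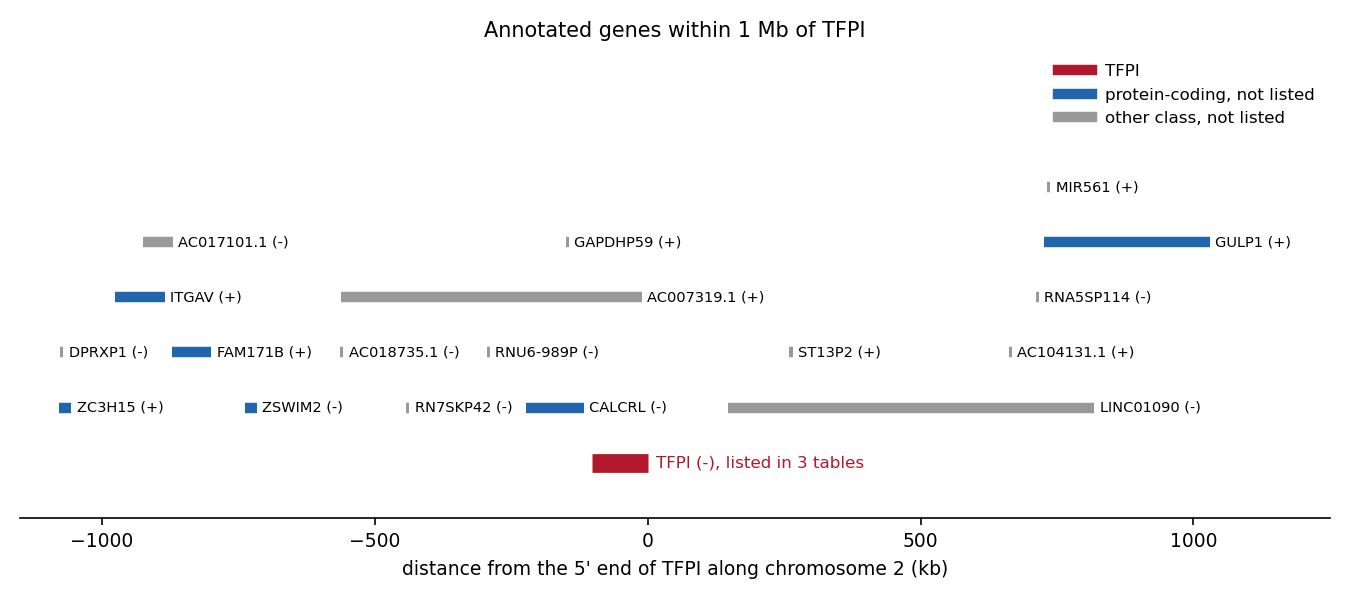
The map shows the annotated genes within 1 Mb of TFPI by their distance in kb from its 5' end along chromosome 2, with strand in parentheses, TFPI in red, protein-coding genes in blue and other classes in grey. TFPI is listed in all 3 tables, and the 18 other genes are listed in none.

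Genes besides TFPI with an adjusted p below 0.05 were found with FLAG-TASOR2. Beside THBS1 these were 3 genes that fell. Per the authors' deposited table the log2 fold change was -6.87 (SE about 0.48) for PAGE1, a cancer-testis gene, and -3.71 (0.28) for TRANK1, each at an adjusted p of 0.0353. EIF3CL, which has a near-identical copy, was listed as lower with an adjusted p of 0.0353 per the authors' deposited table, and no fold is given because all counts of a group appear to be 0.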

How the data were processed

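Total RNA of 8 libraries in 4 groups of 2 was compared in 3 tables, each of 1 altered group with the wild-type controls. Tools listed in the submitters' processing notes, with no role given, are Salmon, STAR 2.7.8, DESeq2 and edgeR, on build hg38. Per the file headers, the deposited tables hold per gene the log2 fold change, the logCPM (called the log2 mean expression), an F score and a p-value before and after adjustment; the authors' tests were not refitted. Rows that lack a value per library allow no depth, no interval that needs one, and no count test. Coordinates of GENCODE 29 are on GRCh38, the assembly that hg38 names, and 257, 253 and 853 of the 268, 261 and 884 listed genes matched it by Ensembl identifier.

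The SE given as approximate is the size of the log2 fold change over the square root of F, and intervals used the degrees of freedom that F and p imply (5.36, 5.34 and 6.01; SciPy 1.17.1). These values describe the deposited fit and are not a spread over libraries. A gene with degrees of freedom lower by 1 was taken to have a group at 0 and is given no fold (9, 8 and 14 genes). The number of genes tested was the adjusted p of the top gene divided by its unadjusted p, and for FLAG-TASOR from the largest row number, a lower bound. The steps were tested on simulated data.

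Named genes were TFPI, listed members of the lists, genes with an adjusted p below 0.05, and listed genes nearby. Also named were the 6 genes nearest in pattern, and the 3 with a deposited symbol next above and below TFPI in log2 fold change. TFPI, the 11 lists and these rules were chosen with earlier results of these data known.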

Additional observations from a re-analysis of the deposited data

How the results depend on the processing

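At an adjusted p threshold of 0.01 in place of 0.05, TFPI (log2 fold change 4.86, adjusted p 0.0114) was no longer past the threshold in the knockout, and the FLAG-TASOR2 call was the same. Reading the mean expression as the mean of the log2 CPM moved the rebuilt TFPI levels to 1191 CPM in the knockout, against 41.1 CPM in its controls, and to 640 CPM with FLAG-TASOR2, against 31.1 CPM in its controls; both FLAG-TASOR levels moved by less than the approximate SE. Under that reading the control levels of TFPI differ more between tables, by up to 1.19 on the log2 scale, against 0.22. Differences between altered groups kept their direction when taken from the rebuilt levels. Widening the window around TFPI to 5 Mb raised the listed genes to 1 in the knockout, 1 with FLAG-TASOR and 5 with FLAG-TASOR2, by including more genes. With the 3 log2 fold changes compared by shape, 4 of the 6 nearest genes remained. Leaving out genes below the median expression of each table kept 6 genes listed in all 3, TFPI among them. Of the 6 nearest genes 1 remained, and the others had been left out by this limit, not by a change in likeness. TFPI had the lowest p of all listed genes in the knockout and FLAG-TASOR2 comparisons. It therefore also had the lowest p among genes of higher expression and among protein-coding genes, and that outcome was fixed in advance. Leaving out a library was not run, as no value per library is held. No paired analysis was possible because the tables carry no replicate numbers.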
